A study of Mus musculus with 8 samples.

Results

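Rnd2 and Rnd3 encode a pair of small GTPases of the Rnd family, and their transcripts were followed in single nuclei of the embryonic mouse cortex with and without the long noncoding RNA gene Pantr2. Both were taken by gene symbol and were 2 of the 14166 genes in the deposited gene tables. They were selected on their levels per cluster and per genotype, which had been seen. Those levels are therefore a description, and the adjusted p-values below place the genes within the table of all genes and are not independent evidence. The samples were dorsal telencephalon, the tissue that forms the cerebral cortex, of C57BL/6J mice at E15.5, with 4 wildtype samples and 4 Pantr2 knockout samples. How the deletion was made, whether a sample was 1 embryo, and whether samples came from different litters are not given in the labels, so the p-values measure the spread between these samples. Counts of Pantr2 were not analysed here, and genotypes are as labelled.

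Most small GTPases switch between a GTP-bound active form and a GDP-bound inactive form. Rnd proteins hardly hydrolyse GTP and stay in the GTP-bound form, so their activity is set mainly by how much protein is made and where it sits. They oppose RhoA and its kinase ROCK, which drive the contraction of actin and myosin. In the cortex, Rnd2 is known as a target of the proneural factor Neurog2 that newborn neurons need when they pass from a multipolar to a bipolar shape. Rnd3 is known there to act on cell division and radial migration.

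The 8 samples held 67319 nuclei, between 7280 and 10921 each, and 20446698 to 34083796 UMIs (unique molecular identifiers, which count captured transcript molecules). All 8 libraries carry 1 library date. Of 66806 distinct cell barcodes, 510 occurred in 2 or more libraries. Xist, a transcript of female cells, gave UMIs in wildtype replicates 1, 2 and 3 and knockout replicates 2 and 3 and 0 UMIs in the other samples, so both groups held both sexes. The authors' deposited annotation puts each nucleus in 1 of 7 clusters, and the clusters are called by number here. Of 9 measured apical progenitor markers, 9 had their highest level in cluster 4, Pax6 among them. Of 6 markers of intermediate progenitors, the dividing daughters of apical progenitors, 5 were highest in cluster 5, Eomes among them. Upper-layer neuron markers such as Cux1 and Cux2 were highest in cluster 1, and the 8 deep-layer markers were highest in cluster 2 (Bcl11b and 3 others) or cluster 3 (Tle4 and 3 others). Clusters 6 and 7 took no name from the markers. Unc5d, a receptor of newborn migrating neurons, was among the 10 leading genes of clusters 1 and 5. The 6 measured markers of such neurons were divided, with 2 highest in each of clusters 1, 5 and 7.

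Rnd2 (ENSMUSG00000001313) lies on the plus strand of chromosome 11, from 101464999 to 101471853 on GRCm38. Rnd3 (ENSMUSG00000017144) lies on the minus strand of chromosome 2, from 51130438 to 51149111. The longest coding transcript of each has 5 exons. Rnd3 overlaps no other annotated gene. Rnd2 overlaps the oppositely oriented gene Vat1 by 1232 bases, only through its noncoding transcripts Rnd2-203 and Rnd2-202, and its coding transcript Rnd2-201 shares 0 bases with Vat1. No other gene matched a Rnd3 transcript at over 95% identity over 100 bases or more, and only a Vat1 transcript, through this overlap, matched Rnd2 so closely. Just under that limit, Gm4768 matched Rnd2 at 94.9% identity over 686 bases, and how UMIs that match both were treated is not given in the sources used here. Whether UMIs were assigned by strand is not given in the sources used here.

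In wildtype samples cluster 5 was high for both genes, followed by cluster 1 for Rnd2 and overlapped by cluster 4 for Rnd3. Rnd2 was highest in cluster 5, at 94.0 ± 13.1 CPM (UMIs of a gene scaled to a common total within the sample and cluster, with TMM factors; mean ± SD, n = 4), and next in cluster 1 at 58.9 ± 5.46 CPM. The samples of cluster 5 did not overlap those of cluster 1, and those of cluster 1 did not overlap those of cluster 7, the third at 41.1 ± 7.30 CPM. Cluster 4 followed at 37.7 ± 2.78, cluster 6 at 33.9 ± 4.78, cluster 2 at 29.7 ± 4.94 and cluster 3 at 24.9 ± 2.82 CPM. From the third place down each cluster overlapped the next between samples. Within every wildtype sample, though, the level fell in the order of clusters 4, 6, 2 and 3. Cluster 7 lay above cluster 4 except in wildtype replicate 3 (34.7 and 37.7 CPM). The top cluster had 3.78 times the level of the lowest. In knockout samples clusters 5 and 1 again led, at 138 ± 25.9 and 112 ± 16.2 CPM, and overlapped, though cluster 5 was the higher within each knockout sample.

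Rnd3 was highest in cluster 4, at 92.3 ± 15.0 CPM in wildtype samples, and in cluster 5, at 83.8 ± 3.99 CPM, and these clusters overlapped. The other 5 clusters lay well under both. Cluster 6 had 31.5 ± 6.56, cluster 1 had 28.8 ± 3.72, cluster 2 had 25.3 ± 2.67, cluster 3 had 23.7 ± 2.60 and cluster 7 had 22.8 ± 2.28 CPM. No sample of these 5 clusters reached the lowest sample of clusters 4 and 5, and among the 5 each cluster overlapped the next in order. Cluster 4 had 4.04 times the level of cluster 7. In knockout samples the order of the leading pair was the other way round, with 98.8 ± 14.2 CPM in cluster 5 and 80.5 ± 7.44 CPM in cluster 4, and they overlapped again. Within each knockout sample cluster 5 was the higher of the pair, and in wildtype it was so only in replicates 2 and 3.

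As a share of all molecules of the gene in a wildtype sample, cluster 5 gave 21.0 ± 5.15% of Rnd2 UMIs and 19.1 ± 1.60% of Rnd3 UMIs with 11.3 ± 2.43% of the nuclei. Cluster 4 gave 32.2 ± 7.63% of Rnd3 UMIs and 12.8 ± 3.32% of Rnd2 UMIs with 14.1 ± 4.42% of the nuclei. Cluster 1 gave 24.8 ± 4.06% of Rnd2 UMIs and 12.8 ± 3.23% of Rnd3 UMIs with 21.3 ± 4.82% of the nuclei. The largest share of Rnd2 molecules thus came from cluster 1, near its share of nuclei, and that of Rnd3 molecules from cluster 4.

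**Figure D1:**
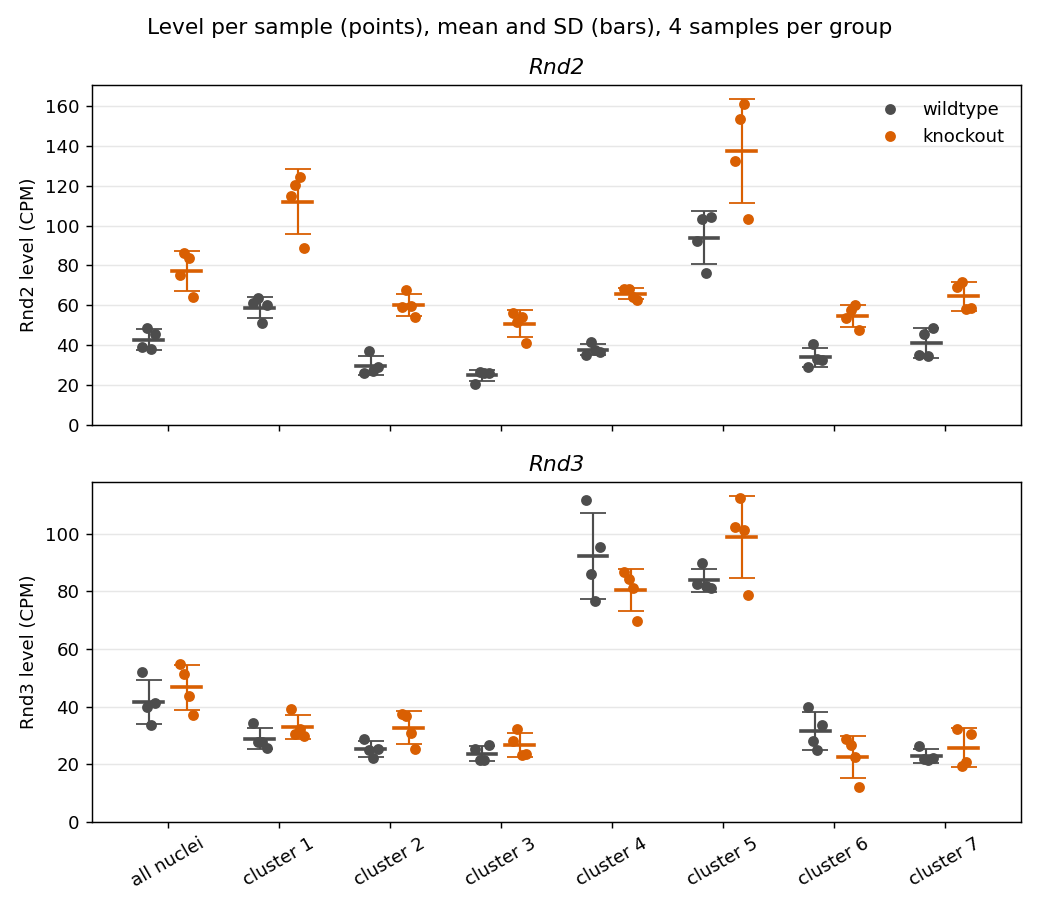
Levels of Rnd2 and Rnd3 in CPM over all nuclei and in each of the 7 clusters. Each point is a sample, wildtype and knockout apart, and bars mark the mean and SD of 4 samples. In wildtype, Rnd2 is highest in cluster 5 (94.0 CPM) and Rnd3 in clusters 4 and 5 (92.3 and 83.8 CPM). The knockout samples lie above the wildtype samples for Rnd2 in every cluster except cluster 5, where 1 knockout sample overlaps them.

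Rnd2 was higher in the knockout samples in all 7 clusters. Over all nuclei, the wildtype samples had 39.2, 48.6, 37.9 and 45.6 CPM in replicates 1 to 4, and the knockout samples 75.1, 86.4, 83.8 and 64.0 CPM. All 4 knockout samples lay above all 4 wildtype samples, which 4.63% of the genes tested also did. The mean rose from 42.8 ± 5.14 to 77.4 ± 10.1 CPM, by 0.85 ± 0.11 (SE) on the log2 scale, with an adjusted p of 0.00235 in edgeR's quasi-likelihood test over 13926 genes. A gene with an adjusted p under 0.05 is called higher or lower below. At this threshold, 1.67% of the genes were called higher in the knockout over all nuclei, 3.58% were called lower and 5.26% were called in either direction.

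Cluster 1 showed wildtype values of 61.0, 63.5, 51.0 and 60.1 CPM against knockout values of 115, 120.4, 125 and 88.6 CPM. The groups did not overlap, and the change was 0.93 ± 0.10 on the log2 scale (adjusted p = 1.02e-04, edgeR). In this cluster 2.54% of 11664 genes were called higher and 5.23% had all knockout samples above all wildtype samples.

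Cluster 2 had wildtype values of 26.1, 36.9, 27.0 and 28.8 CPM and knockout values of 59.1, 67.7, 59.9 and 54.1 CPM. Cluster 3 had 20.7, 26.8, 25.8 and 26.2 CPM against 56.3, 51.4, 54.3 and 41.3 CPM. These clusters, led by deep-layer markers, had the lowest wildtype levels and showed Rnd2 about doubled, with log2 fold changes of 1.03 ± 0.11 (adjusted p = 1.15e-04, edgeR) and 1.01 ± 0.11 (adjusted p = 1.70e-04). Neither showed an overlap between the groups. Free RNA from broken cells, described further on, was not subtracted here, and its part in these low levels was not tested. Of the genes tested, 3.92% were called higher in cluster 2 and 1.48% in cluster 3, and 6.66% and 4.03% had groups apart in this direction.

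In cluster 4, where apical progenitor markers were highest, Rnd2 stood at 34.9, 41.5, 37.7 and 36.8 CPM in wildtype and 68.4, 68.3, 64.2 and 62.7 CPM in knockout samples. This was its tightest separation, with SDs of 2.78 and 2.88 CPM around means of 37.7 and 65.9 CPM. The log2 fold change was 0.81 ± 0.08 (adjusted p = 1.80e-04, edgeR), in a cluster where 1.17% of genes were called higher and 4.31% had groups apart.

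Cluster 5, where Rnd2 was highest to begin with, was the exception. Its wildtype samples had 92.2, 103.5, 76.1 and 104.2 CPM and its knockout samples 132, 153, 161 and 103.2 CPM. Knockout replicate 4 lay below wildtype replicates 2 and 4, so the groups overlapped. The change of 0.55 ± 0.13 missed the threshold (adjusted p = 0.0525, edgeR; 0.868% of genes were called higher and 3.07% had groups apart). Without knockout replicate 4 it was called, at 0.66 (adjusted p = 0.00927), and it was also called with DESeq2 (0.0143), with no filter on low counts (0.0400) and with sex as a covariate (0.0414). In the other 9 alternatives it was not called, with adjusted p-values up to 0.184 without knockout replicate 2.

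Cluster 6 had 29.2, 40.6, 33.1 and 32.7 CPM in wildtype and 53.7, 57.5, 60.4 and 47.4 CPM in knockout samples. Cluster 7 had 35.0, 45.8, 34.7 and 48.8 CPM in wildtype and 69.3, 71.9, 58.1 and 58.7 CPM in knockout samples. The groups were apart in both, as they were for 2.44% and 2.81% of genes. Their changes of 0.71 ± 0.12 (adjusted p = 0.0158, edgeR) and 0.64 ± 0.13 (adjusted p = 0.0272) were called, where 0.352% and 0.578% of genes were called higher. These were the less stable calls. The call in cluster 6 was lost when wildtype replicate 3 or 4, or knockout replicate 2 or 3, was left out (adjusted p up to 0.0837). That in cluster 7 was lost when replicate 1 or 3 of the wildtype, or replicate 1 or 2 of the knockout, was left out (up to 0.135).

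Rnd2 was thus called higher in 6 of 7 clusters. Of 12848 genes tested in at least 1 cluster, 715 were called higher in at least 1, 21 in at least 6 and 12 in all 7. Larger increases were found in each cluster, for between 25 and 64 called genes. Of the samples, knockout replicate 4 was the lowest knockout sample for Rnd2 in 6 of 7 clusters, and wildtype replicate 2 the highest wildtype sample in 5.

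Rnd3 did not pass the threshold in any of the 8 comparisons. Over all nuclei, it stood at 51.9, 39.7, 33.8 and 41.1 CPM in wildtype and 54.6, 51.3, 43.6 and 37.1 CPM in knockout samples. The groups overlapped, and the difference of 0.17 ± 0.14 on the log2 scale had an adjusted p of 0.584 (edgeR). At an unadjusted p under 0.05 it passed in clusters 2 and 5, and a fit blocked on replicate number added cluster 6 (edgeR, -0.42 ± 0.18, unadjusted p = 0.0382, adjusted p = 0.341). DESeq2 called it in none.

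In cluster 4, highest in wildtype but not in knockout samples, Rnd3 had 112, 85.9, 76.5 and 95.3 CPM in wildtype and 86.6, 84.4, 81.0 and 69.8 CPM in knockout samples. The knockout samples lay within or below the wildtype range, and the difference was -0.20 ± 0.11 (adjusted p = 0.433, edgeR). Cluster 5 had 82.5, 89.7, 81.7 and 81.2 CPM in wildtype and 102.4, 112, 101.4 and 78.9 CPM in knockout samples. Here 3 knockout samples lay above every wildtype sample and knockout replicate 4 lay below every one, with a difference of 0.25 ± 0.10 (adjusted p = 0.391).

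Among the clusters of lower level, Rnd3 in cluster 2 had 28.6, 25.0, 22.1 and 25.4 CPM in wildtype and 37.4, 36.8, 30.8 and 25.2 CPM in knockout samples. Knockout replicate 4 again sat within the wildtype range, and the difference of 0.36 ± 0.13 had an adjusted p of 0.122 (edgeR), or 0.0247 without that sample. Cluster 6 had 39.7, 27.99, 24.8 and 33.8 CPM against 28.6, 26.6, 22.5 and 12.1 CPM, a difference of -0.41 ± 0.21 (adjusted p = 0.563). The lowest of these values, in knockout replicate 4, rests on 11 UMIs.

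In cluster 1 Rnd3 ranged from 25.6 to 34.2 CPM in wildtype and from 29.9 to 39.0 CPM in knockout samples. Cluster 3 ranged from 21.4 to 26.6 and from 23.1 to 32.1 CPM, and cluster 7 from 21.3 to 26.2 and from 19.4 to 32.4 CPM. The groups overlapped in all 3, with differences of 0.19 ± 0.11, 0.18 ± 0.13 and 0.17 ± 0.18 and adjusted p-values of 0.460, 0.577 and 0.868 (edgeR). Knockout replicate 4 was the lowest knockout sample for Rnd3 in 5 of 7 clusters.

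**Figure D2:**
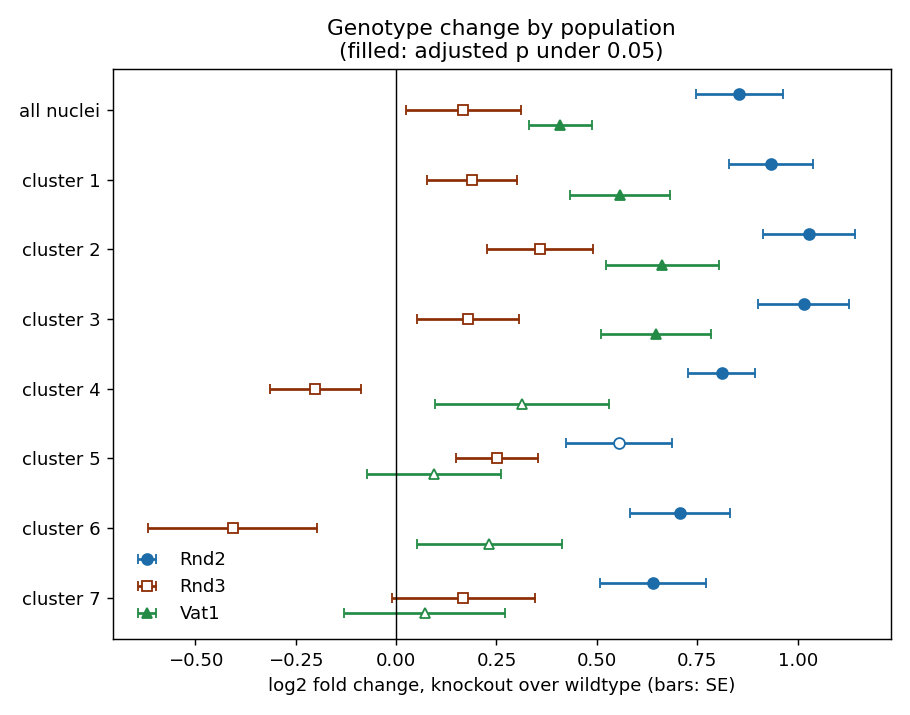
Log2 fold changes, knockout over wildtype, of Rnd2, Rnd3 and Vat1 (the gene that overlaps Rnd2, described further on) over all nuclei and in each cluster, with bars of 1 SE and filled symbols where the adjusted p is under 0.05. All 8 values for Rnd2 lie above 0, from 0.55 in cluster 5 to 1.03 in cluster 2. Those for Rnd3 lie between -0.41 in cluster 6 and 0.36 in cluster 2.

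The third member of the family, Rnd1, was scarce. It had 3.68 ± 0.297 CPM in wildtype and 4.14 ± 0.307 CPM in knockout samples over all nuclei, a difference of 0.17 ± 0.11 (adjusted p = 0.446, edgeR). Its level was highest in cluster 4, at 7.51 ± 1.19 and 8.55 ± 1.27 CPM, and too low to be tested in clusters 1, 5 and 7.

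The balance of the pair within a sample was read as the ratio of Rnd3 UMIs to Rnd2 UMIs. The ratio is used to compare samples with each other, since capture differs between transcripts and the ratio is no measure of their relative abundance. In cluster 4 it was 2.47 ± 0.546 in wildtype and 1.22 ± 0.0722 in knockout samples, with ranges of 2.03 to 3.20 and 1.11 to 1.27. In cluster 5 it was 0.904 ± 0.124 and 0.725 ± 0.0662, and in cluster 1 0.492 ± 0.0702 and 0.297 ± 0.0478. The knockout samples lay below all wildtype samples in all nuclei and in 6 of 7 clusters, and the groups overlapped in cluster 7, at 0.573 ± 0.138 and 0.403 ± 0.112. Rnd2, the denominator, was itself apart between the groups in all nuclei and in 6 of 7 clusters, so this count is not independent of the Rnd2 difference. The share of other gene pairs that are apart in this way is not given here. This comparison was added after the values were seen and is a description.

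**Figure D3:**
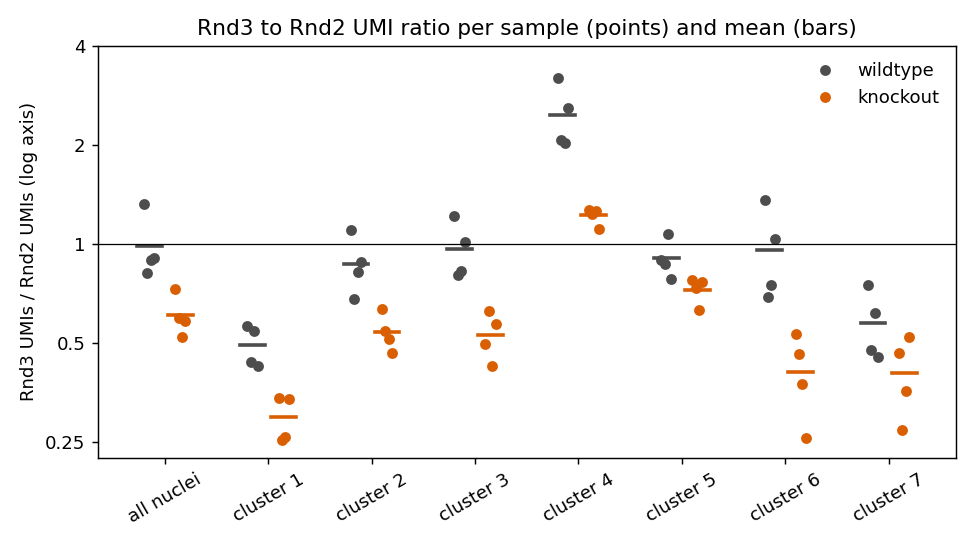
Ratio of Rnd3 UMIs to Rnd2 UMIs over all nuclei and by cluster, on a log axis, with a point per sample and a bar at the mean of 4 samples. Cluster 4 stands above the others in wildtype, at a mean of 2.47, and lies at 1.22 in the knockout samples.

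Whether the genotype difference itself varied between clusters was tested by setting each cluster against the mean of the other 6 in each sample, in 14 exact two-sided permutation tests over the samples. None passed after adjustment. For Rnd2, cluster 5 changed by 0.30 less on the log2 scale and cluster 2 by 0.24 more than the others (exact p = 0.0571 and adjusted p = 0.160 for each). For Rnd3, the differences were 0.34 in cluster 2, -0.28 in cluster 4 and -0.66 in cluster 6 (exact p = 0.0286 and adjusted p = 0.133 for each). With 70 arrangements 0.0286 is the smallest p possible, and 9 of 14 tests would have to reach it for the adjusted p to pass.

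The share of nuclei with a UMI of the gene was compared at an equal depth of 1400 UMIs drawn at random from every nucleus. Of all nuclei, 8.40% then had a UMI of Rnd2, 5.74% of Rnd3 and 0.573% of both. Free RNA from broken cells adds to such shares: the globin transcript Hbb-bs, which none of these cell types should make, had between 209 and 263 CPM in every cluster. No cluster was known to lack Rnd2 or Rnd3, so the clusters of lowest share stand as an upper limit for that background.

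Rnd2 was detected in 6.16 ± 0.938% of nuclei in wildtype and 10.5 ± 1.33% in knockout samples (11.6 and 19.5% without thinning, at median depths of 2772 and 2758 UMIs). A nucleus with the transcript held 1.05 UMIs on average in wildtype and 1.08 in knockout samples. The higher level was thus seen as more nuclei with a UMI. More expressing cells and more molecules per cell cannot be told apart at this depth. The share in cluster 5 was 12.5 ± 3.21 and 18.2 ± 3.08%, in cluster 4 4.77 ± 0.337 and 8.96 ± 0.526%, and in cluster 3, the lowest in both groups, 3.72 ± 0.435 and 6.82 ± 0.813%.

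Rnd3 was detected in 5.31 ± 1.00% and 6.10 ± 1.18% of nuclei. Its share was 10.9 ± 2.04 and 10.2 ± 1.30% in cluster 4, 10.4 ± 0.958 and 12.7 ± 2.32% in cluster 5, and 2.69 ± 0.701 and 3.24 ± 0.950% in cluster 7. The clusters highest in CPM were thus also those with the most nuclei carrying a UMI.

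Nuclei with both transcripts were looked for in cluster 5, where both genes were high. In wildtype samples Rnd2 was found in 15.4 ± 5.00% of the nuclei with a Rnd3 UMI and in 12.1 ± 3.05% of those without, higher in 4 of 4 samples. In knockout samples the shares were 18.4 ± 3.67 and 18.2 ± 3.05%, higher in 1 of 4. Read the other way, Rnd3 was found in 12.6 ± 0.786% of the wildtype nuclei with a Rnd2 UMI and in 10.04 ± 1.15% of those without, higher in 4 of 4 samples. In knockout samples these shares were 12.9 ± 2.93 and 12.7 ± 2.24%, higher in 1 of 4. Nuclei with a UMI of Neurog2 had Rnd2 in 11.9 ± 2.72% and those without in 12.6 ± 3.42% of wildtype cases. In cluster 4 the share with Rnd2 was 4.04 ± 1.08% beside Rnd3 and 4.84 ± 0.419% without it. All these shares are at 1400 UMIs per nucleus. Both readings in cluster 5 describe the same association in the same nuclei. The shares are paired within a sample, so their SDs between samples do not measure the spread of the differences. None of these differences was tested.

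The deposited cell cycle angle divides cluster 4 into 3 ranges. Mki67, a gene of dividing cells, had 79.9 ± 7.45, 223 ± 44.8 and 14.5 ± 9.34 CPM in wildtype samples in the range up to pi, the range beyond pi and the remainder. Mcm6, a DNA replication gene, had 124 ± 10.4, 22.3 ± 5.37 and 31.3 ± 12.1 CPM. Rnd2 was higher in the knockout in each range without overlap, at 38.8 ± 3.42 and 64.5 ± 2.98 CPM in the first, 36.1 ± 3.33 and 62.6 ± 6.89 CPM in the second and 41.2 ± 15.1 and 87.3 ± 26.7 CPM in the third. The last pair rests on 49 and 102 UMIs. These ranges divide the nuclei already compared over the whole cluster, where 4.31% of genes had groups apart. That share was not computed within the ranges. Rnd3 overlapped between the groups in all 3 ranges, at 90.4 ± 17.5 and 78.2 ± 10.8 CPM, 95.4 ± 12.4 and 80.9 ± 3.95 CPM, and 98.6 ± 31.0 and 90.2 ± 24.7 CPM. Neither gene differed between the ranges in wildtype samples by more than this spread.

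Summed marker levels within clusters also differed between the groups. Such sums cannot tell a change in which cells a cluster holds from a change in expression per nucleus. The summed level of the 8 deep-layer markers was 2485 to 2965 CPM in wildtype and 3718 to 5100 CPM in knockout samples in cluster 1, and 8147 to 9817 and 11210 to 13265 CPM in cluster 2. It was also apart, and higher in the knockout, in clusters 5, 6 and 7. The 4 measured upper-layer markers went the other way, at 5803 to 6929 and 3359 to 5020 CPM in cluster 1. In cluster 2 they summed to 2105 to 3487 and 604 to 1084 CPM, and in the other clusters the groups overlapped. The 6 measured interneuron markers were also lower in the knockout in clusters 1 and 2, at 44.8 to 69.3 and 14.8 to 38.0 CPM in cluster 1. In cluster 2 they had 43.4 to 58.1 and 14.2 to 43.1 CPM, barely apart. Over all nuclei and in the other clusters the groups overlapped for these markers. This held in cluster 4, where their sum was highest (85.6 to 158 and 29.9 to 107 CPM). The 9 apical progenitor markers summed to 2397 to 2914 and 2032 to 2194 CPM in cluster 4, and the 5 vascular markers there to 34.0 to 37.2 and 13.9 to 19.8 CPM. The 4 Cajal-Retzius markers summed to 56.9 to 91.9 and 113 to 134 CPM in cluster 5. Reln made up most of this sum, at a mean of 96.5 CPM in cluster 5. Lhx5, Trp73 and Lhx1 had 1.93, 0.928 and 0.491 CPM there. None of these marker lists had a gene at 0, and their part in the Rnd2 difference was not tested. The 6 intermediate progenitor markers, which sum to 551 to 796 CPM in wildtype and 601 to 815 CPM in knockout samples of cluster 5, overlapped between the groups.

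Vat1, the vesicle amine transport protein gene that overlaps Rnd2 on the other strand, was also higher in the knockout. This gene and the neighbours below were looked at after their values were seen. Vat1 had 13.3 ± 0.951 CPM in wildtype and 17.6 ± 0.969 CPM in knockout samples over all nuclei, a difference of 0.41 ± 0.08 (adjusted p = 0.0166, edgeR; 0.0594 without knockout replicate 2 and 0.0598 without knockout replicate 3). It was called in clusters 1, 2 and 3, at 0.56 ± 0.12, 0.66 ± 0.14 and 0.65 ± 0.14. The call in cluster 2 held in all 13 alternatives. That in cluster 1 was lost without wildtype replicate 4 or knockout replicate 2 or 3 (adjusted p up to 0.0797), and that in cluster 3 without wildtype replicate 1 or 2 or knockout replicate 2 (up to 0.0738). In clusters 4 to 7, where it was not called, its differences were 0.31 ± 0.22, 0.09 ± 0.17, 0.23 ± 0.18 and 0.07 ± 0.20. The shared 1232 bases lie at the start of each gene, from 101464999 to 101466230, while the libraries were made with 3′ chemistry. Without known strand use, UMIs from these bases cannot be placed in 1 of the genes, and how many there were was not tested.

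Of the 56 other genes in the table within 1 Mb of Rnd2, all were tested over all nuclei and 3 were called, a share near the 5.26% of all genes called there. Besides Vat1 these were Etv4, an ETS-family transcription factor gene (6.32 ± 1.99 to 3.27 ± 0.656 CPM, -0.96 ± 0.22, adjusted p = 0.0359, edgeR), and Kcnh4, a potassium channel gene (1.62 ± 0.402 to 0.618 ± 0.234 CPM, -1.43 ± 0.30, adjusted p = 0.0224). Both were lower. The call of Etv4 was lost in 6 of 13 alternatives (adjusted p up to 0.123, without knockout replicate 3) and that of Kcnh4 without wildtype replicate 4 or knockout replicate 1 or 2 (up to 0.0730). In cluster 4 Etv4 fell from 29.4 ± 5.27 to 11.6 ± 2.52 CPM (-1.39 ± 0.17, adjusted p = 5.75e-04), called in all 13 alternatives. In cluster 2, Atp6v0a1, a subunit gene of the vacuolar proton pump, was called higher (0.27 ± 0.07, adjusted p = 0.0252) and G6pc3, a glucose-6-phosphatase gene, lower (-0.78 ± 0.19, adjusted p = 0.0203), and these calls were lost in 6 and 4 of 13 alternatives, up to 0.0928 without knockout replicate 3 and 0.0689 with DESeq2. The median log2 fold change of the 56 was 0.02, beside 0.00 over all genes tested. Brca1, 16.9 kb from Rnd2, had a difference of 0.52 ± 0.19 (adjusted p = 0.172), and 0.51 ± 0.13 (adjusted p = 0.0478) with the replicate number as a block. 

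Around Rnd3, 1 of 7 genes was called over all nuclei, Lypd6, a gene of the Ly6 family, at 59.0 ± 4.42 and 76.8 ± 7.40 CPM (0.38 ± 0.08, adjusted p = 0.0233, edgeR). This call was lost without replicate 2 or 3 of either group (up to 0.0738). Its difference was larger in cluster 2, where Lypd6 rose from 37.1 ± 2.70 to 96.0 ± 26.4 CPM (1.38 ± 0.16, adjusted p = 1.76e-04), and it was also called in cluster 3 (0.43 ± 0.08, adjusted p = 0.0122), each in all 13 alternatives. Tnfaip6, the gene of a secreted hyaluronan-binding protein, was called lower in cluster 4 (-0.68 ± 0.17, adjusted p = 0.0491), a call kept in 2 of 13 alternatives and lost with the block (0.0912).

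**Figure D4:**
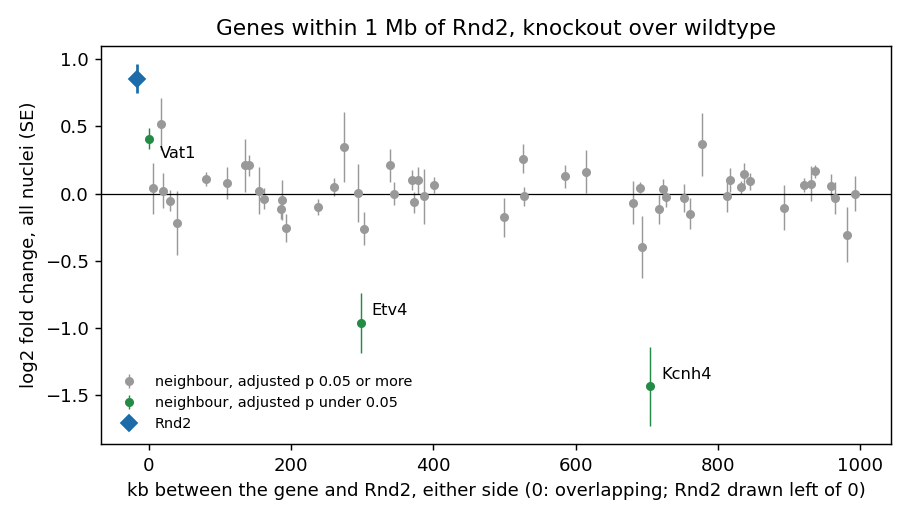
Log2 fold changes over all nuclei of the 56 genes within 1 Mb of Rnd2, against their distance in kb on either side, with bars of 1 SE and Rnd2 drawn at the left. Vat1 (0.41) is the only neighbour called higher. Etv4 (-0.96) and Kcnh4 (-1.43) are called lower, and the neighbours not called lie between -0.40 (Ghdc) and 0.52 (Brca1).

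Neurog2, Zbtb18 and Nr2f1 are transcription factors known to act on Rnd2 in the cortex. None of these was called in any of the 8 comparisons. Neurog2, the activator of Rnd2, had 48.5 ± 13.4 and 58.0 ± 13.7 CPM over all nuclei, a difference of 0.26 ± 0.20 (adjusted p = 0.531, edgeR). Samples with the same replicate number deviated together, but so did some with different numbers, so pairing is not established. With that number as a block Neurog2 was called, at 0.27 ± 0.05 (adjusted p = 0.0203, edgeR), in 1 of 13 alternatives. With the block it was also called in cluster 2, at 0.47 ± 0.10 (adjusted p = 0.00929), where 2 of 13 alternatives gave a call. In cluster 5, where Neurog2 was highest, it had 102.3 ± 27.5 and 103.9 ± 24.9 CPM.

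Zbtb18, a zinc finger repressor of Rnd2, had 148 ± 17.8 and 164 ± 7.18 CPM (0.15 ± 0.08, adjusted p = 0.367, edgeR). Nr2f1, a nuclear receptor reported to repress Rnd2, had 152 ± 13.1 and 162 ± 32.9 CPM (0.10 ± 0.13, adjusted p = 0.756), and these repressors were called in no comparison with or without the block. Among wildtype clusters Zbtb18 was highest in cluster 1, at 188 ± 12.04 CPM, and Nr2f1 in cluster 5, at 246 ± 17.9 CPM.

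Genes for proteins that bind Rnd proteins gave few calls, at a share near that of all genes. Of 12 listed partners 11 were in the table, 0 were called over all nuclei and in 5 clusters, and 1 was called lower in each of clusters 2 and 4, with medians between -0.10 and 0.04 over the 8 comparisons. Over all genes tested, the shares called in either direction were 4.84, 9.11, 3.36, 4.29, 1.77, 0.779 and 1.03% in clusters 1 to 7. Fnbp1, a membrane-bending F-BAR protein of the kind that binds Rnd2, fell in cluster 4 from 144 ± 15.46 to 96.7 ± 9.75 CPM (-0.58 ± 0.10, adjusted p = 0.00405, edgeR), and with the block it was also called lower over all nuclei (-0.20 ± 0.05, adjusted p = 0.0372). Prag1, a pseudokinase that binds Rnd2, fell in cluster 2 from 10.7 ± 0.983 to 7.06 ± 0.712 CPM (-0.61 ± 0.16, adjusted p = 0.0249, and up to 0.0869 without knockout replicate 2). Arhgap35, the p190 RhoGAP through which Rnd proteins inhibit RhoA, had 519 ± 7.21 and 528 ± 18.9 CPM over all nuclei (0.03 ± 0.05, adjusted p = 0.822). Plxnb2, a semaphorin receptor that works with Rnd proteins, had 43.3 ± 3.28 and 47.7 ± 3.58 CPM (0.14 ± 0.07, adjusted p = 0.325). The block also gave a call for Ubxn11, which binds Rnd2 and Rnd3, in cluster 4 (-0.44 ± 0.10, adjusted p = 0.0471). In clusters 2 and 4, 5.19% and 3.12% of all genes tested were called lower.

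Of 24 genes of RhoA, ROCK and the actin and myosin machinery, 22 were in the table. RhoA itself (Rhoa) had 59.7 ± 3.95 and 62.6 ± 2.90 CPM over all nuclei (0.07 ± 0.06, adjusted p = 0.607, edgeR), and Rock1 had 254 ± 11.4 and 256 ± 2.29 CPM (0.01 ± 0.05, adjusted p = 0.920). Diaph2, a formin that elongates actin filaments, rose in cluster 1 from 108 ± 4.31 to 148 ± 9.92 CPM (0.46 ± 0.07, adjusted p = 7.34e-04) and in cluster 2 from 98.0 ± 19.6 to 157 ± 28.6 CPM (0.69 ± 0.15, adjusted p = 0.00866). Over all nuclei its call was marginal (0.36 ± 0.09, adjusted p = 0.0480, and up to 0.136 without knockout replicate 2). Diaph3, another formin, fell in cluster 2 from 73.2 ± 21.5 to 28.4 ± 14.6 CPM (-1.38 ± 0.29, adjusted p = 0.00739). Ppp1r12a, the myosin phosphatase subunit that ROCK inhibits, was called lower in cluster 4 (-0.31 ± 0.07, adjusted p = 0.0302), and was not with the block (0.0587) or without wildtype replicate 1 (0.107). In clusters 3, 5, 6 and 7, 0 of the 19 or 20 tested were called, and all counts of this list, at most 2 of 21 in a cluster, are near the shares of all genes given above. The list's medians lay between -0.01 and 0.05.

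Of 26 radial migration genes, 24 were in the table. Over all nuclei 0 were called higher and 1 lower, in cluster 1 1 and 1, in cluster 2 2 and 4, in cluster 3 1 and 1, in cluster 5 2 and 0, and in clusters 4, 6 and 7 0 in either direction. Of all genes tested, 2.3% were called lower in cluster 1 and 1.88% in cluster 3. The list's medians lay between -0.01 and 0.07, beside all-gene medians of 0.00 to 0.01. The largest difference was that of Plxna4, a semaphorin co-receptor, which fell in cluster 2 from 993 ± 276 to 303 ± 96.6 CPM (-1.72 ± 0.24, adjusted p = 4.82e-04, edgeR). Sema3a, the gene of a secreted semaphorin, fell in cluster 1 from 140 ± 13.9 to 96.4 ± 12.5 CPM (-0.55 ± 0.09, adjusted p = 0.00333) and in cluster 2 from 59.8 ± 12.2 to 36.5 ± 3.89 CPM (-0.72 ± 0.13, adjusted p = 0.00388). Nrp1, the receptor that binds Sema3a, was called lower in cluster 2 (-0.79 ± 0.20, adjusted p = 0.0239, and 0.0869 without knockout replicate 3).

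Tiam2, a Rac activator of migrating neurons, rose in cluster 5 from 817 ± 88.6 to 1256 ± 116 CPM (0.62 ± 0.09, adjusted p = 0.00194, edgeR). Its call in cluster 2 (0.25 ± 0.07, adjusted p = 0.0407) was lost in 6 of 13 alternatives, up to 0.1496 without knockout replicate 3. With the block Tiam2 was also called higher over all nuclei (0.23 ± 0.05, adjusted p = 0.0306) and in clusters 1 and 6. Reln, a secreted cue for migrating neurons, rose in cluster 5 from 73.4 ± 14.6 to 121 ± 9.75 CPM (0.73 ± 0.13, adjusted p = 0.00801), and was called higher in clusters 2 and 3 at 0.67 ± 0.15 and 0.52 ± 0.10. Each of these 2 calls was lost without knockout replicate 3, at adjusted p-values of 0.0536 and 0.0539, and with the block Reln was also called over all nuclei (0.00358) and in cluster 1. The Cajal-Retzius list given above contains Reln.

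Dclk1, a microtubule-binding kinase of the doublecortin family, fell in cluster 2 from 927 ± 34.8 to 704 ± 83.5 CPM (-0.40 ± 0.08, adjusted p = 0.00711, edgeR). Its calls over all nuclei (-0.41 ± 0.09, adjusted p = 0.0359) and in cluster 3 (-0.26 ± 0.07, adjusted p = 0.0445) were each lost in 8 of 13 alternatives, with adjusted p-values up to 0.125 and 0.158, both without knockout replicate 3. Plxna2 was called higher in cluster 1 (0.24 ± 0.06, adjusted p = 0.0474, and 0.162 without knockout replicate 2). With the block, Dclk1 was also called lower in clusters 1, 6 and 7 (-0.26 ± 0.06, -0.36 ± 0.07 and -0.26 ± 0.07), Dab1 lower in cluster 3, Unc5d lower in clusters 1 and 6, Nrp1 higher in cluster 5 and Plxna2 higher in cluster 2. Dcx, the doublecortin gene, had 344 ± 34.7 and 368 ± 11.5 CPM over all nuclei (0.10 ± 0.07, adjusted p = 0.509). Members of this list thus moved in both directions. Of its 12 calls in single clusters 6 were in cluster 2, where 3.92% of all genes tested were called higher and 5.19% lower.

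The genes most like Rnd2 were sought by Pearson correlation of log2(CPM + 1) over the 28 wildtype sums of 4 samples by 7 clusters, among 8332 genes. These sums share libraries and nuclei, and the correlations are a description. Scrt2, a repressor of the Scratch family made by newborn neurons, came first at 0.95, with the same 2 leading clusters: 108 CPM in cluster 5 and 59.3 CPM in cluster 1. Zfp532, Ogt, Usp3 and Rc3h2 followed, each at 0.94. Over the 28 knockout sums the values were 0.92 for Scrt2, which ranked 7, and 0.86 to 0.88 for the others.

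For Rnd3 the nearest was Eya1, a transcriptional co-activator and phosphatase gene, at 0.97, with 128 CPM in cluster 4, 51.6 CPM in cluster 5 and under 7 CPM elsewhere. Cdk6, the cyclin D-dependent kinase, had 0.97, Abca1, a cholesterol transporter, 0.96, Myo6, an unconventional myosin, 0.96, and Sox6, a transcription factor, 0.95. In knockout samples these values were 0.82, 0.91, 0.88, 0.81 and 0.88, and Eya1 ranked 336. Rnd2 and Rnd3 correlated with each other at 0.51 over the wildtype and 0.60 over the knockout sums, which put Rnd3 at rank 2054 among the genes like Rnd2 in wildtype.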

How the data were processed

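Each of the 8 samples has a matrix of UMI counts deposited by the authors, not normalised and made with the 10x Genomics 3′ chemistry per the labels' protocols. The submitters' processing notes name kallisto, bustools and mm10. Gene positions are from GENCODE M21 on GRCm38, since the deposited gene table gives other positions and names no build. Cluster numbers and the cell cycle angle are other values deposited by the authors, and the deposited doublet score, at most 0.5 in every nucleus, was read only to see that high scores had been removed. Deposited totals per nucleus lay 0.653 to 0.958% above the sums of the deposited counts. All nuclei were kept (at least 314 per sample and cluster). The 1 gene without a symbol was left out.

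Counts of a sample's nuclei were added up, together and by cluster, and fitted with edgeR 4.0.16 in R 4.3.3 (TMM, filterByExpr, glmQLFit, glmQLFTest, 1 term for genotype). The Benjamini-Hochberg adjustment ran over every gene of a fit, and 0.05 was the threshold. The scripts were tested on simulated data. Alternatives were DESeq2 1.42.0, its size factors in edgeR, no filter, a replicate block, sex and each sample left out. Transcripts were compared with blastn 2.17.0. The members and lists were chosen with earlier results of these data known. Named genes are Rnd1, Rnd2, Rnd3, transcription factors known to act on them (results for 1 of these are not reported here), called list members and the 5 genes most like each member among those with 20 CPM or more in a cluster. Arhgap35, Plxnb2, Rhoa, Rock1, Dcx, Vat1, the neighbours and genes called only with the block were chosen after their values were seen. Arhgap5, Myl12a, Myl12b, Tubb3 and Tuba1a of the lists were not analysed here, nor were the promoter and protein sequences of the members.

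Replicate numbers 1 to 4 occur in both groups. Over 8903 genes samples with the same number deviated together from their groups' means, with correlations of 0.50, 0.28, 0.28 and 0.21, each over the 0.1 set for pairing. Pairs of different numbers gave between -0.48 and 0.42, the highest for wildtype replicate 3 with knockout replicate 4. Wildtype replicate 2 with knockout replicate 3 gave 0.32, so pairing by number is not established. The labels do not say what the numbers mean.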

Additional observations from a re-analysis of the deposited data

Results flagged for a closer look

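In 3 of 32 groups of 4 samples, 1 sample stood apart by Dixon's test at the 95% level (the gap to the nearest sample over the range of the group), which chance does in about 1 of 20 groups. Rnd2 in cluster 3 had 20.7 CPM in wildtype replicate 1, below the other wildtype samples (ratio 0.848). Rnd3 in cluster 5 had 89.7 CPM in wildtype replicate 2 (0.846) and in cluster 7 26.2 CPM in wildtype replicate 1 (0.852), each above the other wildtype samples.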

How the results depend on the processing

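Rnd2 kept its direction in all 8 comparisons under 13 alternatives each, and was called in all 13 over all nuclei and in clusters 1 to 4. In cluster 5 it was called at 0.55 with DESeq2, 0.56 with no filter and 0.58 with sex as a covariate, and leaving out 1 sample gave 0.47 to 0.66, called without knockout replicate 4. The same range was 0.64 to 0.80 in cluster 6 and 0.56 to 0.73 in cluster 7, with calls lost as given above. Rnd3 in cluster 2 ranged from 0.29 to 0.47 and was called without knockout replicate 4. The replicate block changed no call of Rnd2 or Rnd3 (Rnd2 in cluster 5: 0.54, adjusted p = 0.0808 by edgeR). Vat1 reversed to -0.0022 in cluster 5 without wildtype replicate 2 (range 0.19 at most), and in cluster 7 to -0.036 without wildtype replicate 3 and -0.035 without knockout replicate 2 (0.27 at most). The cause of these shifts was not tested. Genes called over all nuclei numbered 732, against 1215 with DESeq2 and 1344 with the block. With the block they numbered 652 in cluster 3 (400 without it), 253 in cluster 6 (82) and 255 in cluster 7 (109). Leaving out 1 sample gave 263 to 994 over all nuclei, with the fewest without knockout replicate 3, then 286 without knockout replicate 2 and 362 without wildtype replicate 4. It gave 335 to 647 in cluster 1, 192 to 438 in cluster 3, 315 to 539 in cluster 4, 101 to 189 in cluster 5, 51 to 148 in cluster 6 and 63 to 142 in cluster 7. Levels per cluster stayed within 1 SD in 84 of 84 alternatives. Leaving out 1 of 4 samples cannot move a mean that far, so those alternatives could not have failed. The others were CPM without TMM factors and the mean of CPM over single nuclei. Shares of nuclei without thinning were all higher (28 of 28), as greater depth makes them. Counts of called list members differed by more than 1.5 times in 74 of 520 alternatives. The fewest UMIs of either gene in a sample and cluster were 11, for Rnd3 in cluster 6.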
